A study of Mus musculus with 12 samples.

Results

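The transcription factors and cofactors at the nuclear end of the Wnt pathway were followed across the series as 10 genes: the TCF/LEF factors Tcf7, Tcf7l1, Tcf7l2 and Lef1, the Groucho corepressors Tle1, Tle2, Tle3 and Tle4, and the Pygopus genes Pygo1 and Pygo2. They were found by symbol among the 27179 genes of the deposited tables and joined to the counts by gene ID, and all 10 passed the filter on low counts in each comparison. RNA of dorsal cortex from C57BL/6 mouse embryos was sequenced in 12 libraries, 3 in each of 4 groups: Ash2l cKO and WT at embryonic day E14.5, and Ash2l cKO and WT at E16.5. In the cKO embryos Ash2l is deleted by D6-Cre, a transgene expressed in dorsal telencephalic cells. The Ash2l protein belongs to the core of COMPASS, the enzyme complexes that methylate lysine 4 of histone H3. Cells of other origin in the dissected tissue, such as vessels and meninges, are outside the reach of that promoter, and neither the exons removed nor the Cre status of the WT embryos is given in the labels.

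TCF/LEF proteins bind DNA at Wnt target genes. Without a Wnt signal they hold Groucho/TLE proteins, which recruit histone deacetylases and keep the targets off. When beta-catenin enters the nucleus it takes the place of the TLE proteins and brings in Bcl9 and Pygopus, whose PHD finger reads methylated lysine 4 of histone H3. In the developing cortex the pathway acts on progenitors and on the medial edge that forms the hippocampus, and Tle4 is also a marker of the corticothalamic neurons of the deep layers.

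Libraries are called A, B and C within each group, by the ascending number in their titles, so that the cKO and WT libraries of 1 letter and age share a number. They held between 14318147 and 24719047 counted fragments. Levels are CPM (counts scaled to TMM-adjusted library size), and levels of different genes are compared as FPKM, which divides CPM by exon length in kilobases. The labels do not say whether each library is 1 embryo. A p-value here sets a difference between groups only against the scatter of libraries within groups, some of which can be technical. Ash2l averaged 52.8 ± 6.61 CPM in E14.5 cKO and 129 ± 12.9 CPM in E14.5 WT, and 58.1 ± 3.31 CPM in E16.5 cKO and 133 ± 3.57 CPM in E16.5 WT (SD, n = 3 each), with no overlap between genotypes. Tbr1, a transcription factor of cortical projection neurons, was present in every library, between 235 and 444 CPM. At E14.5 all 3 cKO libraries carried Xist and all 3 WT libraries carried Y-linked transcripts, so embryo sex and genotype cannot be told apart there. At E16.5 each genotype had 2 libraries with Y-linked transcripts and 1 with Xist. Some libraries stood apart by the markers of other cells. E14.5 cKO A had the most meningeal RNA (427 summed CPM over 12 markers, against 55.2 to 111 in the other E14.5 libraries), and E14.5 WT B the most of GABAergic and ventral markers (532 over 20 markers, against 199.9 to 310.1). E14.5 cKO A also had the lowest pan-neuronal sum (4520 CPM over 20 markers, against 6767 to 9845 in the other E14.5 libraries). Its sum of 14 deep-layer and subplate markers was lowest as well (3482 CPM, against 4487 to 5135). Choroid plexus markers were high in E14.5 WT A (491 over 10 markers) and E16.5 WT C (632), and between 9.61 and 62.7 in the other 10 libraries. In bulk tissue, fewer cells of a type and less RNA per cell cannot be told apart.

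COMPASS complexes are known to occupy promoters rich in CG dinucleotides. The count of CG dinucleotides given here was chosen after its values were seen, and its part in the E16.5 changes was not tested. Of the genes called at E16.5, 3 have a listed start with at least 100 bases of sequence outside the gene, and these stretches are shown. Each is the part of the 250 bases before the outermost RefSeq start (GRCm38.p6) that lies outside the RefSeq gene, 5′ to 3′ on the strand of the gene, with CG dinucleotides in capitals. The Pygo1 stretch lies at chr9:72925395-72925644 on the plus strand, that of Tle4 at chr19:14598184-14598433 on the minus strand, and that of Tle1 at chr4:72200990-72201143 on the minus strand.
Pygo1: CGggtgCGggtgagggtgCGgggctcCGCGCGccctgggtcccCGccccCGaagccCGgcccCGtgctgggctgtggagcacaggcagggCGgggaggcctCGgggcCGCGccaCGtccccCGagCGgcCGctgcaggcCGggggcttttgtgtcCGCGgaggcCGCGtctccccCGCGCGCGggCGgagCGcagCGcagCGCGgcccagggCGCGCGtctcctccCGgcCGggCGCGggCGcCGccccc
Tle4: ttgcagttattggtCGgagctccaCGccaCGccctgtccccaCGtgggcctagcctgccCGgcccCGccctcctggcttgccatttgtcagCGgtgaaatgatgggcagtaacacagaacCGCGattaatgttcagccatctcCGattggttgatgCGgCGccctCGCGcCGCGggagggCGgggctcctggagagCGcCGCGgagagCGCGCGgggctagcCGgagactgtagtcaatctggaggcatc
Tle1: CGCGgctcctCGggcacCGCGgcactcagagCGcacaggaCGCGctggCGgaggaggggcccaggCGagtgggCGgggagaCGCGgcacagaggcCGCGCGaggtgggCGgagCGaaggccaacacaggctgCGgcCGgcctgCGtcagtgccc
The Pygo1 stretch held 41 CG dinucleotides and the Tle4 stretch 24 in 250 bases, and the Tle1 stretch 21 in 154 bases. Per 100 bases these are 16.4 for Pygo1, 9.6 for Tle4 and 13.6 for Tle1. The median was 2 over 23204 RefSeq genes with at least 100 such bases, which were not limited to genes tested here. More CG than in 99.2%, 90.2% and 97.7% of those genes thus stood before Pygo1, Tle4 and Tle1, of which Pygo1 and Tle4 were lower and Tle1 higher in E16.5 cKO. Among genes that were not called, Tcf7l2 and Tcf7l1 were denser than Tle4: Tcf7l2 stood above 96.0% of genes, Tcf7l1 above 94.7%, Tle3 above 79.6%, Lef1 above 67.6% and Pygo2 above 48.0%. The TCF-binding words that begin with CTTTG and end in AA, AT, TA or TT were searched on both strands. None occurred in the 4 genes with a full window of 250 bases outside the gene (Tcf7l1, Lef1, Tle4 and Pygo1), and 16.2% of 19827 such windows held one. For Tcf7, the listed starts lie inside the RefSeq gene, which reaches 52283383 on chromosome 11, while the exons counted for it end at 52282571. Transcripts of Tcf7 are thus counted from the exons below that point, and gene counts do not separate isoforms of any of the 10 genes, among them the short TCF forms that lack the beta-catenin-binding end.

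The corepressor Tle4, the coactivator Pygo1 and the TCF factor Tcf7 were lower in E16.5 cKO, and the corepressor Tle1 was slightly higher. By edgeR's quasi-likelihood test with Benjamini-Hochberg adjustment over all genes, 4 of 10 passed an adjusted p of 0.05, 1 higher and 3 lower, where 15.9% of 14865 genes tested passed (5.98% higher and 9.88% lower). The median size of the log2 change, whatever its sign, was 0.36 over the 10 genes and 0.21 over all genes tested. In the same libraries the sum of 20 pan-neuronal markers was 7674 to 8117 CPM in E16.5 cKO and 10050 to 11120 CPM in E16.5 WT, and its part in these changes was not tested.

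**Figure D1:**
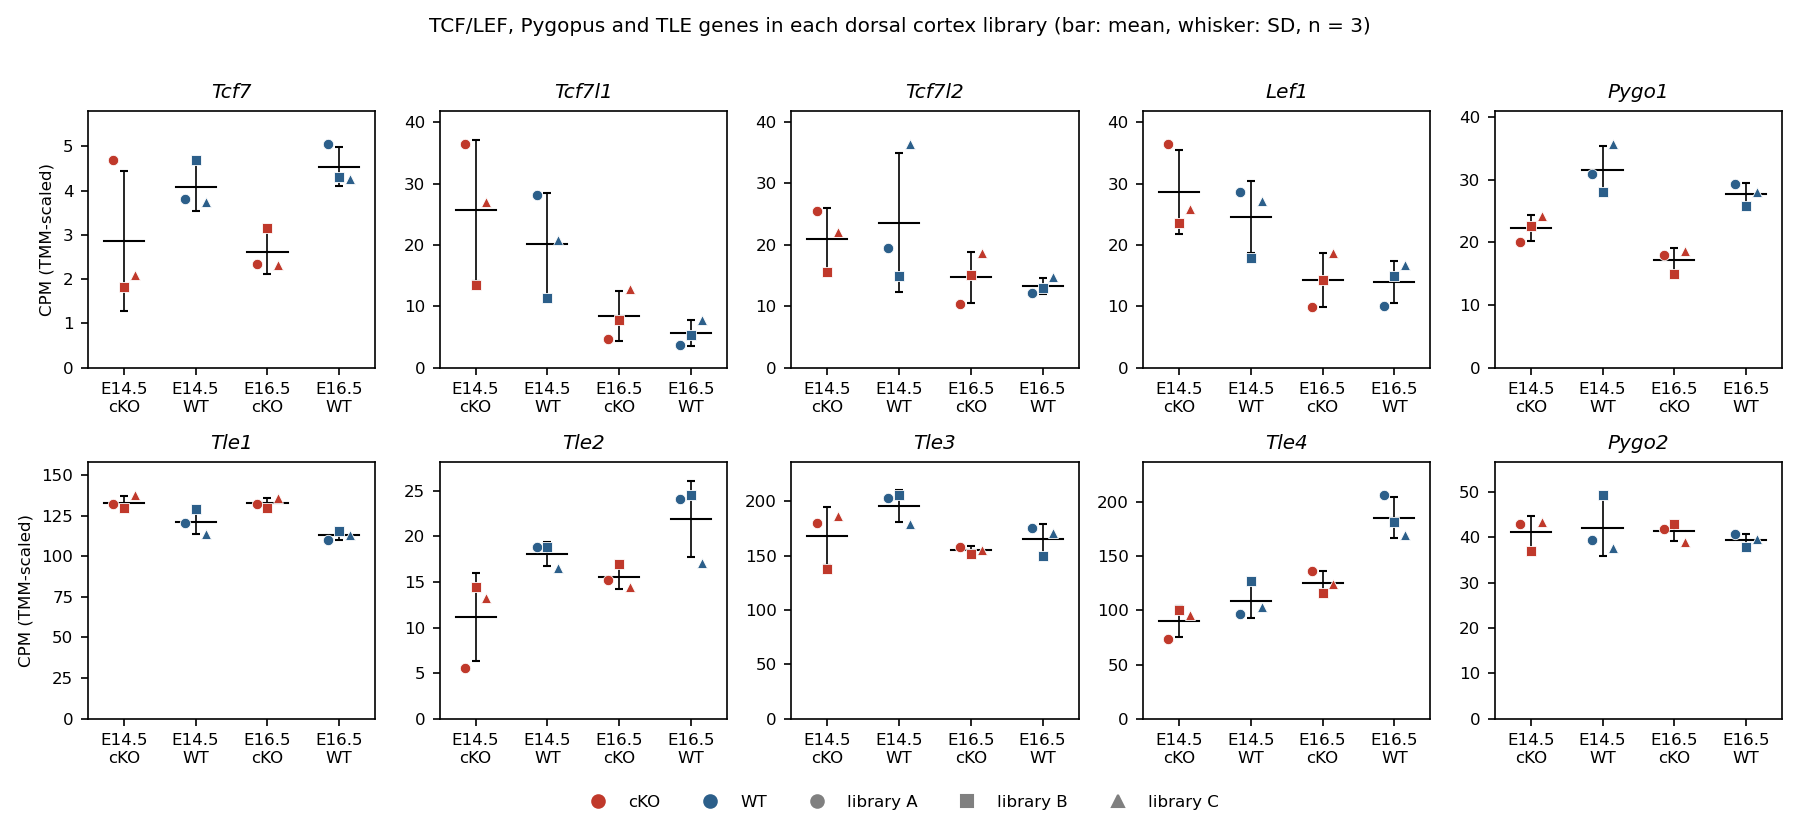
CPM of each of the 10 genes in each library (points, with a symbol for each library letter), by group on the horizontal axis, with the mean (bar) and SD (whisker) of 3 libraries. At E16.5 the 3 cKO libraries lie below the 3 WT libraries for Tcf7, Tle2, Tle4 and Pygo1 and above them for Tle1.

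Tle4 (Entrez 21888, minus strand of chromosome 19, 14448072 to 14597983 in mm10, 20 exons) was at 136, 116 and 124 CPM in E16.5 cKO A, B and C and at 206, 181 and 169 CPM in E16.5 WT A, B and C. The highest cKO library lay below the lowest WT library. Tle4 thus had a log2 fold change of -0.57 (SE 0.0923, edgeR adjusted p = 0.00701). It passed with every library left out in turn, between -0.63 and -0.49, with adjusted p between 0.00273 and 0.039.

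Pygo1 (Entrez 72135, plus strand of chromosome 9, 72925650 to 72946015, 3 exons) had 17.9, 15 and 18.6 CPM in E16.5 cKO A, B and C and 29.3, 25.8 and 27.97 CPM in E16.5 WT A, B and C. The genotypes did not overlap. Pygo1 had a log2 fold change of -0.70 (SE 0.112, edgeR adjusted p = 0.00665), and with each library left out it stayed past the threshold, between -0.76 and -0.61. Its paralogue Pygo2 (Entrez 68911, chromosome 3, 89430837 to 89435128) overlapped between genotypes, at 39.0 to 43.0 CPM in E16.5 cKO and 37.8 to 40.7 CPM in E16.5 WT (log2 fold change 0.06, SE 0.0782, edgeR adjusted p = 0.624).

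Tcf7 (Entrez 21414, minus strand of chromosome 11, 52252604 to 52282571, 10 exons), known for its part in T cell development, had 2.34, 3.17 and 2.31 CPM in E16.5 cKO A, B and C, and 5.05, 4.30 and 4.26 CPM in E16.5 WT A, B and C. These rest on 35 to 61 fragments in E16.5 cKO libraries and 74 to 95 in E16.5 WT libraries. The groups were apart, with a log2 fold change of -0.80 (SE 0.210, edgeR adjusted p = 0.039). The call was lost with any of the 6 libraries left out (-0.97 to -0.72, adjusted p 0.0554 to 0.127). It was also lost in a fit of all 12 libraries (adjusted p = 0.127) and with embryo sex in that fit (0.165). Tcf7 passed with DESeq2 (adjusted p = 0.0206). The authors' deposited table gives it a log2 ratio of 0.65 for WT over knockout, with an adjusted p of 0.0228. The T cell genes Cd3g and Il7r were at 0 in all E16.5 libraries, and Cd3e was at 0 in all but E16.5 WT B, with 0.0581 CPM.

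Tle1 (Entrez 21885, minus strand of chromosome 4, 72117142 to 72200919, 20 exons) was at 132, 129.7 and 136 CPM in E16.5 cKO A, B and C and at 109.8, 116 and 113 CPM in E16.5 WT A, B and C. All E16.5 cKO libraries lay above all E16.5 WT libraries. This gave a log2 fold change of 0.23 (SE 0.0586, edgeR adjusted p = 0.0375). It missed the threshold in 5 of the 6 fits that left out a library (adjusted p of at least 0.0917) and passed without cKO A (adjusted p = 0.0475). With embryo sex in a fit of all 12 libraries it did not pass either (0.23, adjusted p = 0.0689).

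Tle2 (Entrez 21886, chromosome 10, 81575287 to 81590845) had 15.3, 17.0 and 14.47 CPM in E16.5 cKO A, B and C and 24.1, 24.5 and 17.1 CPM in E16.5 WT A, B and C. The genotypes were apart by little, WT C lying just above cKO B. Its log2 fold change of -0.49 missed the threshold (SE 0.154, edgeR adjusted p = 0.0667), and passed without WT C (-0.64, adjusted p = 0.0201) and with DESeq2 (adjusted p = 0.0322). With a block for the shared title number, which was not taken as pairing, it also passed (-0.49, edgeR adjusted p = 0.00674). The authors' deposited table gives it a log2 ratio of 0.46 for WT over knockout, with an adjusted p of 0.0344. Tle3 (Entrez 21887, chromosome 9, 61372366 to 61418497), at 151 to 158 CPM in E16.5 cKO and 149 to 175 CPM in E16.5 WT, overlapped (log2 fold change -0.10, SE 0.0734, edgeR adjusted p = 0.406).

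The other TCF/LEF genes did not pass at E16.5 in the fit without a block and overlapped between genotypes. Tcf7l1 (Entrez 21415, chromosome 6, 72626380 to 72788956), which acts mostly as a repressor in progenitors, had 4.63, 7.84 and 12.8 CPM in E16.5 cKO A, B and C and 3.67, 5.41 and 7.85 CPM in E16.5 WT A, B and C. In both genotypes library A was lowest and library C highest. Tcf7l1 had a log2 fold change of 0.56 (SE 0.393, edgeR adjusted p = 0.375), and each cKO library lay above the WT library of its own letter. In a fit with a block for the shared title number it passed (0.53, SE 0.151, edgeR adjusted p = 0.0226). The labels do not say what that number marks, and the numbers were not taken as pairs. Lef1 (Entrez 16842, chromosome 3, 131110471 to 131223334), required in the mouse for the dentate gyrus, had 9.84, 14.4 and 18.6 CPM in E16.5 cKO A, B and C and 10.1, 14.9 and 16.7 CPM in E16.5 WT A, B and C. Lef1 had a log2 fold change of 0.03 (SE 0.260, edgeR adjusted p = 0.961). Tcf7l2 (Entrez 21416, chromosome 19, 55741810 to 55933655), strongly expressed in the thalamus, had 10.4, 15.1 and 18.8 CPM in E16.5 cKO A, B and C and 12.2, 13.0 and 14.8 CPM in E16.5 WT A, B and C. Tcf7l2 had a log2 fold change of 0.14 (SE 0.206, edgeR adjusted p = 0.693).

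**Figure D2:**
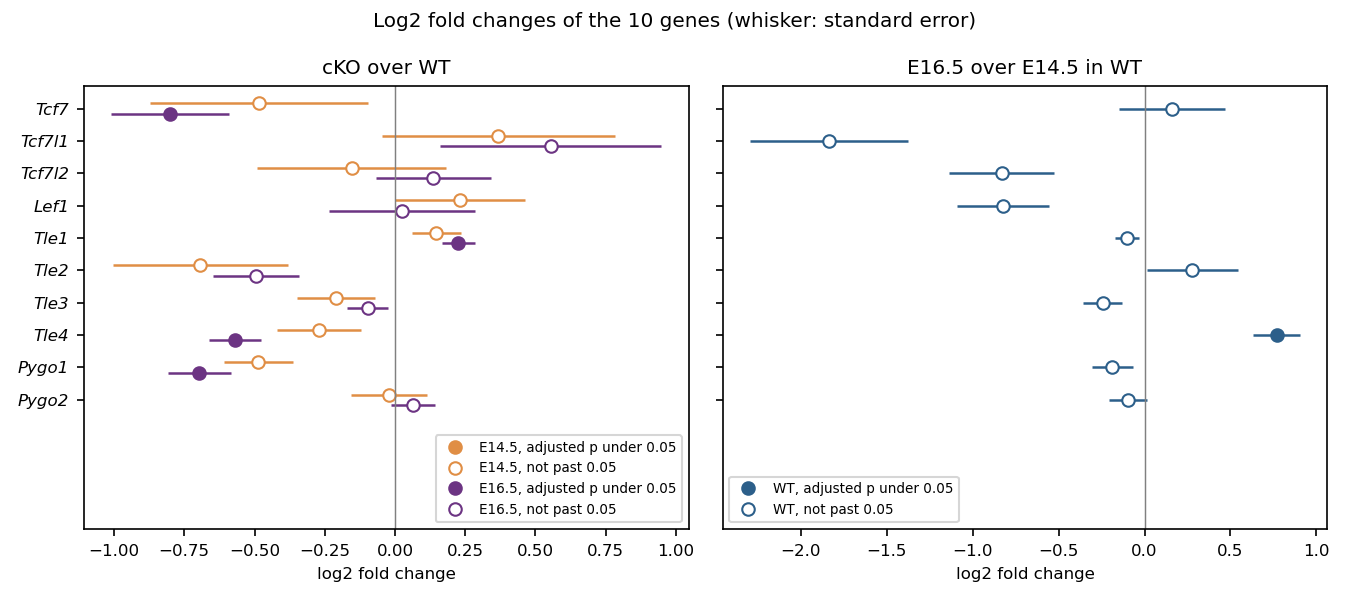
Log2 fold change (horizontal axis) of each of the 10 genes (vertical axis) with its standard error, for cKO over WT at E14.5 and E16.5 on the left and for E16.5 over E14.5 in WT on the right. Filled points passed an adjusted p of 0.05: Tcf7, Tle1, Tle4 and Pygo1 in cKO over WT at E16.5, none at E14.5, and Tle4 between the ages.

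At E14.5 none of the 10 genes passed by edgeR, where 2.01% of 14788 genes did (0.352% higher and 1.66% lower). At an unadjusted p under 0.05 there was 1 of 10, Pygo1, where 20.2% of all genes lay under it. DESeq2 also called Pygo1 alone of the 10, and 1278 of the 14788 genes. Pygo1 had 20.1, 22.7 and 24.3 CPM in E14.5 cKO A, B and C and 30.95, 27.96 and 35.7 CPM in E14.5 WT A, B and C. The genotypes were apart, and the log2 fold change of -0.49 (SE 0.123, edgeR adjusted p = 0.0906) passed with DESeq2 (adjusted p = 0.0205) and in the fit of all 12 libraries (adjusted p = 0.0262). With embryo sex in that fit it did not pass (-0.65, adjusted p = 0.113). Since sex and genotype coincide at E14.5, the sex term was set by the E16.5 libraries alone. That fit thus cannot separate sex from genotype at E14.5. The authors' deposited table gives a log2 ratio of 0.46 for WT over knockout and an adjusted p of 0.0262.

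Tle2 was also apart at E14.5, with 1.80, 4.66 and 4.27 FPKM in E14.5 cKO A, B and C and 6.04, 6.05 and 5.31 FPKM in E14.5 WT A, B and C. Lowest was cKO A, the library with the high meningeal and low pan-neuronal markers. The change was -0.69 (SE 0.312, edgeR adjusted p = 0.268) with cKO A and -0.38 without it. Tle1 lay above WT in all E14.5 cKO libraries, at 129.6 to 138 CPM in E14.5 cKO and 114 to 129 CPM in E14.5 WT (log2 fold change 0.15, SE 0.0871, edgeR adjusted p = 0.394). In all, the libraries did not overlap for 1 gene above and 2 below WT at E14.5, where this held for 26.8% of all genes (11.9% above and 14.8% below). At E16.5 it held for 1 gene above and 4 below, where it held for 37.5% (19.3% above and 18.3% below). Some marker sums of the E14.5 libraries were apart as well, with 4520 to 7225 CPM in E14.5 cKO and 7327 to 9845 CPM in E14.5 WT for the pan-neuronal list, and 4287 to 4411 CPM in E14.5 cKO and 3972 to 4191 CPM in E14.5 WT for apical progenitors. GABAergic and ventral sums were also apart, at 199.9 to 223.8 CPM in E14.5 cKO and 224.7 to 531.6 CPM in E14.5 WT. Deep-layer, upper-layer and intermediate progenitor sums overlapped. The part of these cell types in the E14.5 values of Pygo1, Tle1 and Tle2 was not tested.

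Tle4 overlapped at E14.5, with 73.3, 100.6 and 95.2 CPM in E14.5 cKO A, B and C and 96.6, 127 and 103 CPM in E14.5 WT A, B and C (log2 fold change -0.27, SE 0.150, edgeR adjusted p = 0.360). Tcf7 had 4.69, 1.81 and 2.09 CPM in E14.5 cKO A, B and C and 3.80, 4.68 and 3.74 CPM in E14.5 WT A, B and C. The cKO library with the high meningeal and low pan-neuronal markers, A, was level with the highest WT library, B. The change was -0.49 (SE 0.388, edgeR adjusted p = 0.527) with cKO A and -1.05 without it. The part of those cell types in the Tcf7 values was not tested. Tcf7l1 ran from 13.5 to 36.4 CPM in E14.5 cKO and from 11.4 to 28.2 CPM in E14.5 WT, with library B lowest in both genotypes. Lef1 ran from 23.5 to 36.4 CPM in E14.5 cKO and from 17.8 to 28.6 CPM in E14.5 WT. Both genes were highest in cKO A, which also had the most vessel RNA at E14.5 (314 summed CPM over 16 markers, against 165 to 246 in the others). Without that library the change was 0.0043 for Lef1, against 0.23 with it, and 0.021 for Tcf7l1, against 0.37 with it. In E14.5 WT the vessel sum was highest in WT B (246 CPM), where Lef1 (17.8 CPM) and Tcf7l1 (11.4 CPM) were lowest. It was lowest in WT A (176 CPM), where Lef1 (28.6 CPM) and Tcf7l1 (28.2 CPM) were highest. The part of vessels in these values was not tested. Tcf7l2 ran from 15.6 to 25.5 CPM in E14.5 cKO and from 14.99 to 36.4 CPM in E14.5 WT. Its highest library was WT C. Summed over 13 thalamic and diencephalic markers, WT C was at 598 CPM. The other E14.5 libraries were at 490.5 to 651 CPM in E14.5 cKO and 450.1 and 605 CPM in E14.5 WT B and A. Of single markers in that list, Gbx2 was highest in WT C, at 1.48 CPM against 0 to 0.209 CPM in the other E14.5 libraries. Lhx9 was at 51.7 CPM in WT C and 52.2 CPM in WT A. The part of thalamic tissue in the Tcf7l2 values was not tested. Tle3 ran from 137 to 186 CPM in E14.5 cKO and from 179 to 205 CPM in E14.5 WT, and Pygo2 from 37.0 to 43.3 CPM in E14.5 cKO and from 37.7 to 49.3 CPM in E14.5 WT. The edgeR adjusted p-values of Tcf7l1, Lef1, Tcf7l2, Tle3 and Pygo2 ran from 0.437 to 0.945.

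A test of the age difference, with all 12 libraries in 1 fit, asked whether the effect of the knockout was larger at one age. No gene of 15338 passed by edgeR or DESeq2 (0%), while 317 genes, none of them among the 10, had an unadjusted p under 0.05. For Tle4 the effect at E16.5 minus that at E14.5 was -0.28 (SE 0.192), for Pygo1 -0.19 (SE 0.170), for Tcf7 -0.29 (SE 0.445) and for Tle1 0.10 (SE 0.0948), each with an edgeR adjusted p of 1. A gene called at E16.5 and not at E14.5 is thus not shown to differ between the ages.

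Between E14.5 and E16.5 in WT, Tle4 rose and the TCF/LEF genes Tcf7l1, Tcf7l2 and Lef1 had lower means. Tle4 averaged 185 ± 18.7 CPM in E16.5 WT and 109 ± 16.2 CPM in E14.5 WT (SD, n = 3 each), a log2 fold change of 0.77 (SE 0.136, edgeR adjusted p = 0.0299). It was the only one of the 10 genes to pass, where 2.15% of 15338 genes did (0.763% higher and 1.39% lower). The call was lost without E14.5 WT A (adjusted p = 0.123), E14.5 WT C (0.152), E16.5 WT A (0.154), E16.5 WT B (0.109) or E16.5 WT C (0.0516), with changes between 0.69 and 0.83. With embryo sex as a term it was 0.73 (adjusted p = 0.0774). Tcf7l1 averaged 5.64 ± 2.10 CPM in E16.5 WT and 20.1 ± 8.40 CPM in E14.5 WT (SD, n = 3 each). Its log2 fold change of -1.84 missed the threshold (SE 0.461, edgeR adjusted p = 0.0537), and passed without E14.5 WT B (-2.10, adjusted p = 0.0242) and with DESeq2 (adjusted p = 0.00211). Lef1 averaged 13.9 ± 3.43 CPM in E16.5 WT and 24.5 ± 5.85 CPM in E14.5 WT (log2 fold change -0.82, SE 0.268, edgeR adjusted p = 0.0874). Tcf7l2 averaged 13.3 ± 1.34 CPM in E16.5 WT and 23.6 ± 11.3 CPM in E14.5 WT (log2 fold change -0.83, SE 0.308, edgeR adjusted p = 0.116). Tcf7l1 also passed without E14.5 cKO A (adjusted p = 0.0295), B (0.0332) or E16.5 cKO A (0.0471), and Lef1 passed with DESeq2 (-0.80, adjusted p = 0.0368). Lef1 and Tcf7l2 both passed without E14.5 WT B (Lef1 adjusted p = 0.0395, Tcf7l2 adjusted p = 0.0402), the library with the high GABAergic markers. Without E14.5 WT C the change of Tcf7l2 was -0.37 (adjusted p = 0.446). The other 6 genes had log2 changes from -0.24 for Tle3 to 0.28 for Tle2 and did not pass.

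Per exon length the TLE genes other than Tle2 were the most abundant in every group. In E16.5 cKO the order was Tle1 at 30.3, Tle3 at 29.8 and Tle4 at 27.6 FPKM, and the ranges of neighbours overlapped. In E16.5 WT it was Tle4 at 40.7, Tle3 at 31.7 and Tle1 at 25.8 FPKM, and neighbouring ranges were apart. In E14.5 cKO Tle3 led at 32.2 FPKM, overlapping with Tle1 at 30.5, with Tle4 apart at 19.7. In E14.5 WT Tle3 led at 37.6 FPKM, apart from Tle1 at 27.7, which overlapped with Tle4 at 23.9. The Pygopus genes came next. Pygo1 was at 9.85 FPKM in E16.5 cKO and 15.9 FPKM in E16.5 WT, and Pygo2 at 14.2 FPKM in E16.5 cKO and 13.5 FPKM in E16.5 WT. Pygo2 was thus the higher in all E16.5 cKO libraries and Pygo1 in all E16.5 WT libraries, with Pygo1 at 36.8% to 44.4% of the summed Pygopus FPKM in E16.5 cKO and 53.3% to 54.6% in E16.5 WT. That order depends on exon length, since by counts alone Pygo1 held 29.4% in E16.5 cKO and 41.3% in E16.5 WT, and Pygo2 was the higher in both. Below them stood Lef1, at 5.81 FPKM in E16.5 cKO and 5.65 in E16.5 WT, and Tle2, at 5.004 FPKM in E16.5 cKO and 7.03 in E16.5 WT. Tcf7l2, Tcf7l1 and Tcf7 lay between 1.17 and 3.24 FPKM in both E16.5 groups, and Tcf7 and Tcf7l1 overlapped at the bottom of the order in E16.5 WT.

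**Figure D3:**
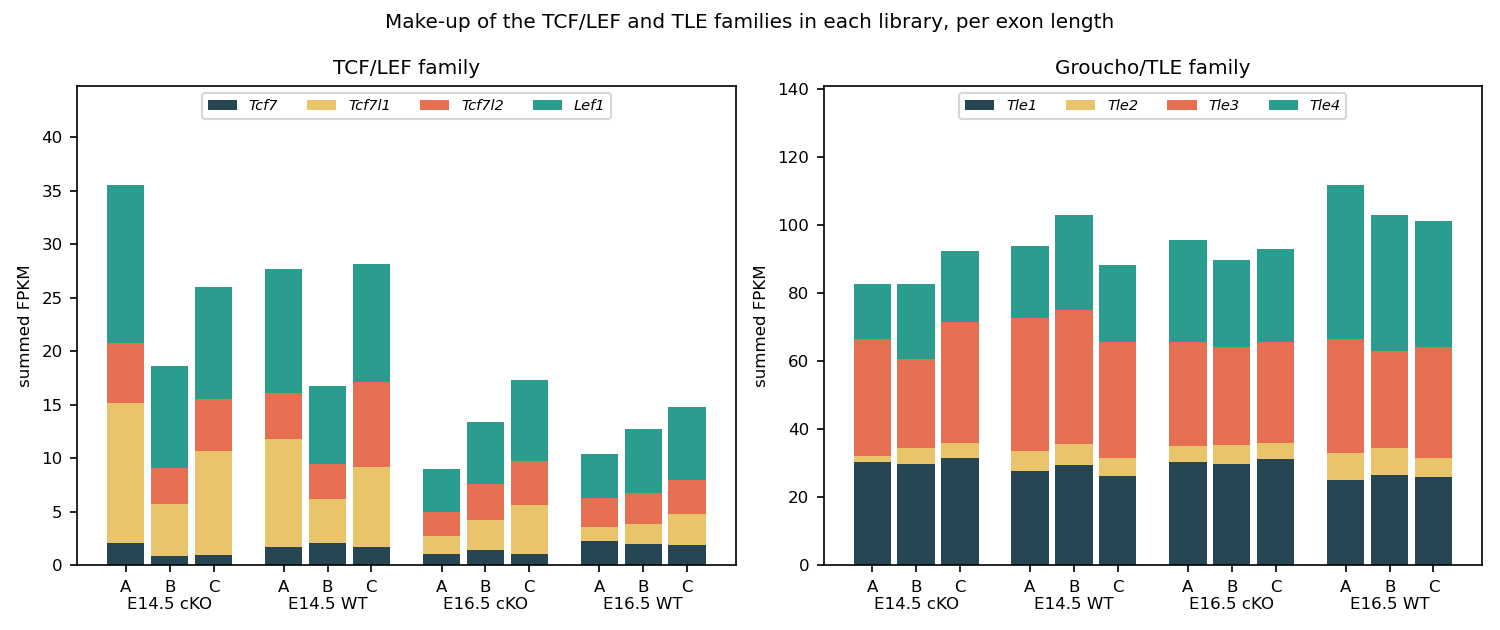
Summed FPKM (vertical axis) of the TCF/LEF genes (left) and the TLE genes (right) in each library, with the part of each gene stacked by colour. Tle4 makes up 28.4% to 31.4% of the TLE sum in E16.5 cKO and 36.7% to 40.5% in E16.5 WT, and the mean TCF/LEF sum is lower at E16.5 than at E14.5 in both genotypes.

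Tle4 made up 29.7% ± 1.53 of the summed TLE FPKM in E16.5 cKO and 38.6% ± 1.87 in E16.5 WT, and Tle1 32.7% ± 0.971 in E16.5 cKO and 24.6% ± 1.82 in E16.5 WT (SD, n = 3 each). The ranges of both shares were apart. The summed TLE level was 92.7 ± 2.92 FPKM in E16.5 cKO and 105.3 ± 5.68 FPKM in E16.5 WT. The TCF/LEF sum was 13.2 ± 4.15 FPKM in E16.5 cKO and 12.6 ± 2.22 FPKM in E16.5 WT, and 26.7 ± 8.48 FPKM in E14.5 cKO and 24.2 ± 6.48 FPKM in E14.5 WT. By FPKM Lef1 was on average the largest part of it in every group, between 41.5% and 44.4%, while by counts without length Tcf7l2 held 37.1% and Lef1 35.7% in E16.5 cKO. Tcf7l1 held 22.0% of it in E16.5 cKO and 15.7% in E16.5 WT, and 33.4% in E14.5 cKO and 29.1% in E14.5 WT. Shares carry no test here.

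Over the 12 libraries Tcf7l1 and Lef1 varied together (Pearson r = 0.97 of log2 CPM), and Tcf7l2 with both (0.83 with Tcf7l1 and 0.84 with Lef1), while Tle4 ran against Tcf7l1 (-0.90). These values span both ages and both genotypes and describe the libraries only. Among 12639 other genes, those most like Tcf7l1 were Nde1 (0.99), a protein of the mitotic spindle, and Dll1 (0.99), a Notch ligand, and the one most opposed was Atp8a1 (-0.99). Lef1 was most like Phldb2 (0.99) and Nsmce4a (0.99) and most opposed to Vamp2 (-0.99), a synaptic vesicle protein. Tle4 was most like Cpeb3 (0.98) and Marchf4 (0.98) and most opposed to Mcam (-0.99). Pygo1 was most like Hist3h2ba (0.95) and Cstb (0.95) and most opposed to Hopx (-0.96), a gene of radial glia. Tle1 was most like Cdc42se2 (0.94) and Phf10 (0.94), and Tcf7 most like Elk3 (0.96) and most opposed to Pgm3 (-0.97). Tle2 was most like Csmd2 (0.97), Tle3 most like Zfp385a (0.96), Tcf7l2 most like Hist2h2bb (0.92) and Pygo2 most like Poldip3 (0.91).

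Partners and targets of the 10 genes were read from lists of known genes. The counts of called list members carry no test. Over all 14865 genes tested at E16.5, 15.9% were called, 5.98% higher and 9.88% lower. Of 12 tested genes for short TLE proteins and Groucho-recruiting factors, 1 rose and 2 fell at E16.5 (median log2 change 0.08). Aes, a short TLE protein without the WD repeats, was 90.7 ± 4.35 CPM in E16.5 cKO and 126 ± 7.67 CPM in E16.5 WT (log2 fold change -0.48, SE 0.0703, edgeR adjusted p = 0.00485). Fezf2, a repressor that specifies deep-layer neurons, fell by 0.24 on the log2 scale (edgeR adjusted p = 0.0446), and Hes5, a Notch target that recruits Groucho, rose by 0.68 (edgeR adjusted p = 0.0412). Of 22 genes of the beta-catenin nuclear complex 1 rose and 2 fell. Tbl1xr1, a corepressor exchange factor, was at -0.33 (edgeR adjusted p = 0.00895), Tnik, a kinase that acts on TCF proteins, at -0.29 (0.0498), and Cdc73, a subunit of the PAF complex, at 0.30 (0.0483). Ctnnb1, which encodes beta-catenin, overlapped, at 990 to 1151 CPM in E16.5 cKO and 1051 to 1201 CPM in E16.5 WT. Of 19 genes of the destruction complex and cytoplasmic transduction 0 rose and 2 fell, Apc2 (-0.50, edgeR adjusted p = 0.0171) and Csnk1a1 (-0.32, edgeR adjusted p = 0.0413). Of 15 tested feedback and target genes of TCF proteins 1 rose and 1 fell. Nkd2, an inhibitor of Dishevelled, was 2.86 ± 0.325 CPM in E16.5 cKO and 7.86 ± 0.839 CPM in E16.5 WT (log2 fold change -1.47, SE 0.174, edgeR adjusted p = 0.00264). Apcdd1, a membrane inhibitor of Wnt signalling, rose by 0.36 (edgeR adjusted p = 0.0473). Axin2, a common readout of the pathway, had 34.4, 55.1 and 53.1 CPM in E16.5 cKO A, B and C and 37.1, 54.7 and 48.7 CPM in E16.5 WT A, B and C, and so overlapped. At E14.5 none of the genes in these 4 lists passed by edgeR, where 2.01% of 14788 genes did.

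Some markers of cell types differed between the genotypes at both ages, and their counts carry no test. Over all genes, 5.98% of 14865 were called higher and 9.88% lower at E16.5. The shares at E14.5 were 0.352% higher and 1.66% lower of 14788. At E16.5, of 20 pan-neuronal genes 12 fell and 0 rose (median -0.49), and none was at 0. Stmn2, a neuronal microtubule regulator, was at -1.30 (edgeR adjusted p = 8.19e-04) and Ina, a neuronal intermediate filament, at -0.95 (edgeR adjusted p = 0.00179). Of 13 tested deep-layer and subplate genes 4 fell, among them Ntsr1 (-1.57, edgeR adjusted p = 0.0234), a receptor of layer 6 neurons, and Lmo3 (-0.50, edgeR adjusted p = 0.0232), and all 13 had changes below 0. Their sum was 4177 to 5150 CPM in E16.5 cKO and 4700 to 5361 CPM in E16.5 WT, and none was at 0. Tbr1, a defining transcription factor of layer 6, overlapped, at 235 to 332 CPM in E16.5 cKO and 280 to 336 CPM in E16.5 WT. Of 19 apical progenitor genes 3 rose and 1 fell. Hopx (0.82, edgeR adjusted p = 0.00976), Hes5 (0.68, 0.0412) and Nes (0.46, 0.0485) rose. Ptprz1 fell, at -0.37 (edgeR adjusted p = 0.0231). The sum of the list was 3680 to 4366 CPM in E16.5 cKO and 3663 to 4098 CPM in E16.5 WT. Of 13 upper-layer genes 2 fell and 0 rose, Unc5d (-0.50, edgeR adjusted p = 0.00403), a netrin receptor, and Pou3f1 (-1.09, edgeR adjusted p = 0.0309), a POU transcription factor, with a sum of 2259 to 3029 CPM in E16.5 cKO and 2680 to 3521 CPM in E16.5 WT. The part of progenitors and of deep-layer and upper-layer neurons in the changes of Tle4, Pygo1, Tcf7 and Tle1 was not tested. At E14.5, 1 of the 20 pan-neuronal genes fell, Nefm, a neurofilament protein (-1.74, edgeR adjusted p = 0.0407). Of the 19 apical progenitor genes 1 rose, Hopx (0.97, edgeR adjusted p = 0.0355). Embryo sex and genotype cannot be told apart in these E14.5 values. Of 12 intermediate progenitor genes 1 fell at each age, Sstr2. It was at -0.70 at E14.5 (edgeR adjusted p = 0.041) and -0.72 at E16.5 (edgeR adjusted p = 0.0182). Vessel markers, which matter here because brain endothelium expresses Lef1, showed 0 of 16 genes called at E16.5, with a sum of 188 to 304 CPM in E16.5 cKO and 234 to 276 CPM in E16.5 WT. Of 15 genes of the cortical hem and hippocampus 0 were called at E16.5.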

How the data were processed

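Libraries were grouped by the genotype and age of their labels, 3 to each of 4 groups. The authors deposited raw counts of fragments per gene. They were made with featureCounts 1.5.2 (strand setting 2, minimum overlap 25 bases), as the file headers record, after STAR 2.5.2b alignment to mm10, which the submitters' processing notes name. Log2 fold changes of WT over knockout and p-values from DESeq2 1.14.1, named in the submitters' processing notes, were also deposited by the authors. Another 12 columns in those tables, with normalised values, were left unused. None of the 10 genes shares same-strand exons with another gene.

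The counts went into edgeR 4.0.16 (R 4.3.3, limma 3.58.1) after TMM scaling and a filterByExpr filter by group. Robust quasi-likelihood tests were adjusted by Benjamini-Hochberg across every gene in the fit, and 0.05 was the threshold. The 6 libraries of an age made up 1 fit, and all 12 libraries the fit for the age difference and for the WT ages. A standard error is the size of the log2 change over the square root of F. Correlations used log2 CPM with a prior count of 2. On simulated data, edgeR recovered 55% (E14.5, 14618 genes), 77.8% (E16.5, 14718 genes), 50% (age difference, 15183 genes) and 71% (WT ages, 15155 genes) of 2-fold changes, and 12%, 39%, 4% and 41% of 1.5-fold changes in the same order. Each simulation changed 200 genes with a mean of at least 1 CPM, while 2358 genes were called in the E16.5 data. The adjusted p depends on the share of changed genes, so recovery in the data can differ. Alternatives were DESeq2 1.42.0, other scalings and filters, a replicate block, an embryo sex term and left-out libraries. The sequencing run is not given in the sources used here, so age and run cannot be told apart.

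The 10 genes, the lists and the alternatives were chosen with earlier results of these data known. The text names Ash2l, the 10 genes, up to 4 called members of a list by smallest p or up to 2 markers as levels, and for each of the 10 genes those most like and most opposed to it. Some values under this rule are not reported here. Axin2, Ctnnb1 and the count of CG dinucleotides were chosen after their values were seen. A symbol turned into a date was replaced by the RefSeq symbol of its gene ID, Marchf4.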

Additional observations from a re-analysis of the deposited data

How the results depend on the processing

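With each library left out in turn, genes called numbered 5 at the lowest at E14.5 (without WT C or cKO C), and 3.5e+02 at the highest (rounded, without cKO A). They numbered 987 to 2855 at E16.5 (lowest without WT B, highest without cKO A), 0 to 0 for the age difference, and 1 to 2216 for the WT ages (lowest without E14.5 WT C, E16.5 WT A or E16.5 WT B, highest without E14.5 WT B). Of the 10 genes these fits called 0 to 0, 2 to 3, 0 to 0 and 0 to 4 in those 4 comparisons. Of 360 log2 changes in these fits 20 changed sign, 16 lost a call and 7 gained one, and of 400 under the other settings 8 changed sign, 5 lost a call and 11 gained one. At E14.5 DESeq2 called 1278 genes, the 12-library fit 1336 and that fit with embryo sex 128, and 621 were called without both WT B and cKO A, a setting chosen after seeing the data. The first 2 of these called 1 of the 10 genes, Pygo1. Since sex and genotype coincide at E14.5, the sex term was set by the E16.5 libraries alone and cannot separate the 2 at E14.5. At E16.5 the fit with embryo sex called 1569 genes and 2 of the 10. For the WT ages DESeq2 called 2005 genes and 3 of the 10, the fit with embryo sex 10 genes and 0 of the 10, and the fit without WT B and cKO A 3697 genes and 4 of the 10. RLE scaling turned the split of 117 higher and 213 lower genes there into 121 and 142. The cause of these moves was not tested.

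The title numbers were not taken as pairs. Deviations from the group means of same-numbered libraries were correlated in 3 ways (2 gene sets and 2 prior counts), with the counts of the block fit already known. Every pair passed 0.1 in 1 of 3 calculations at E16.5, that on the genes of its own fit with a prior count of 2 (0.281, 0.21 and 0.112). The lowest E16.5 pair was 0.0751 and 0.0926 in the other two, and at E14.5 0 of 3 passed. With a replicate block 1279 genes and 1 of the 10 (Pygo1, adjusted p = 0.0325) were called at E14.5, 4790 genes and 6 of the 10 at E16.5, and 1 gene for the age difference. The added E16.5 calls were Tcf7l1 (0.53, adjusted p = 0.0226) and Tle2 (-0.49, adjusted p = 0.00674).

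Changes of sign concerned uncalled values. Without E14.5 WT B and cKO A, E14.5 changes were -0.24 for Tcf7l1, -0.17 for Lef1 and 0.061 for Pygo2, age differences were 0.13 for Tcf7, 0.19 for Lef1, -0.16 for Tle2 and -0.0095 for Pygo2, and Pygo2 was at 0.040 between WT ages. With 1 library left out, ranges that crossed 0 were -0.10 to 0.11 for Pygo2 and -0.39 to 0.30 for Tcf7l2 at E14.5, and -0.20 to 0.24 for Lef1 and -0.067 to 0.33 for Tcf7l2 at E16.5. For the age difference they were -0.56 to 0.24 (Tcf7), -0.21 to 0.53 (Tcf7l1), -0.17 to 0.52 (Tcf7l2), -0.42 to 0.012 (Lef1), -0.12 to 0.40 (Tle2), -0.028 to 0.18 (Tle3) and -0.053 to 0.15 (Pygo2), and between WT ages -0.16 to 0.040 (Pygo2). Family shares of counts without length moved by over 1 SD in 25 of 40 cases. The 26 to 95 fragments of Tcf7 per library limit its precision.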
